A study of Mus musculus with 38 samples.

Results

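The 9 genes described here encode proteins of the secondary and tertiary granules of neutrophils: Ltf, Camp, Ngp, Lcn2, Mmp8, Mmp9, Itgb2l, Chil3 and Hp. They were chosen by name, through the Ensembl identifiers of the deposited tables, and are 9 of 47729 genes in the whole marrow tables and 9 of 46679 in the precursor tables. Female C57BL/6 mice, 6 to 7 weeks old and with no gene alteration named in the labels, gave RNA from whole bone marrow or from a sorted fraction of it. Combined mice received both zoledronic acid and G-CSF. G-CSF mice received recombinant human granulocyte colony-stimulating factor alone, a cytokine that drives neutrophil production, at 50 µg per kg on 3 days. ZA mice received zoledronic acid alone, a bisphosphonate that binds bone and acts on osteoclasts, at 100 µg per kg. Untreated mice received neither agent. In the combined group G-CSF began 2 days after ZA. Whole marrow gave 2 combined, 3 G-CSF, 2 ZA and 2 untreated libraries. Sorted cells, which the labels call osteoclast precursors, carried CD115 and none of the lineage markers CD11b, Ly-6G/Ly-6C, TER119, CD45R and CD3. In sequencing run 1 they gave 3 combined, 3 G-CSF, 1 ZA and 1 untreated library, beside 1 G-CSF, 1 ZA and 1 untreated whole marrow library. The labels number biological replicates without saying that each is a separate animal. The tests therefore read only the spread among the libraries, which may be technical.

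Neutrophils load their granules in sequence as they mature. Primary granules with myeloperoxidase and serine proteases form first in promyelocytes, secondary granules with lactoferrin form in myelocytes and metamyelocytes, and tertiary granules rich in gelatinase form last, in band cells. Transcription of secondary granule genes depends on the factor C/EBPε, and the RNAs of many granule genes have largely faded when the cell leaves the marrow. Ltf encodes lactoferrin, an iron-binding protein. Camp encodes the cathelicidin from which the antimicrobial peptide CRAMP is cut, and Ngp a neutrophilic granule protein of related sequence. Lcn2 encodes lipocalin 2, which withholds iron by binding bacterial siderophores. Mmp8 and Mmp9 encode neutrophil collagenase and gelatinase B, Itgb2l an integrin beta subunit-like protein of neutrophils that is also known as pactolus, Chil3 a chitinase-like protein also made by monocytes and macrophages, and Hp haptoglobin, which binds free haemoglobin.

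On GRCm38, the assembly that mm10 names, Camp (109847379 to 109849617, minus strand), Ngp (110419747 to 110423012, plus strand) and Ltf (111019271 to 111042767, plus strand) lie in this order on chromosome 9, with 570.1 kb between Camp and Ngp and 596.3 kb between Ngp and Ltf. Mmp8 is also on chromosome 9 (7558456 to 7568485), Lcn2 (32384633 to 32388252) and Mmp9 (164940780 to 164955850) are on chromosome 2, Chil3 is on chromosome 3 (106147554 to 106167564), Hp on chromosome 8 (109575128 to 109579172) and Itgb2l on chromosome 16 (96422288 to 96443619). All 9 are annotated as protein-coding. RefSeq promoter windows of the build GRCm38.p6 were matched for 7 of the 9, the exceptions being Mmp9 and Hp. RefSeq starts can differ from the outer bounds of the GENCODE genes above, as for Camp. The 250 bases before the start of 5 members are printed 5′ to 3′ on the gene's own strand, because Itgb2l, Chil3 and Camp are the members whose level differed with treatment in marrow, and Ltf and Ngp are their neighbours in function and, for Camp, on the chromosome. The windows are chr9:111019042-111019291 (plus strand) for Ltf, chr9:110419558-110419807 (plus) for Ngp, chr9:109849457-109849706 (minus) for Camp, chr16:96443615-96443864 (minus) for Itgb2l and chr3:106167565-106167814 (minus) for Chil3. Capitals mark matches to the C/EBP motif TTGCNNAA on either strand, where N is any base.
Ltf: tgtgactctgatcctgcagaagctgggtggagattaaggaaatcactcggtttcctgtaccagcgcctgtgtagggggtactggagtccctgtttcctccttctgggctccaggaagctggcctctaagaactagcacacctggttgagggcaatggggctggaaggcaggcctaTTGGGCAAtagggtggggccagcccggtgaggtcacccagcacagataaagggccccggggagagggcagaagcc
Ngp: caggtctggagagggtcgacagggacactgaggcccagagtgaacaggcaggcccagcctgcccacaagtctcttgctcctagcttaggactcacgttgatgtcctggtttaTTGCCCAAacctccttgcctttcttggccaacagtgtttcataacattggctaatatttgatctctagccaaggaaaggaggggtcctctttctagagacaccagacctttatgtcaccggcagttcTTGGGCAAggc
Camp: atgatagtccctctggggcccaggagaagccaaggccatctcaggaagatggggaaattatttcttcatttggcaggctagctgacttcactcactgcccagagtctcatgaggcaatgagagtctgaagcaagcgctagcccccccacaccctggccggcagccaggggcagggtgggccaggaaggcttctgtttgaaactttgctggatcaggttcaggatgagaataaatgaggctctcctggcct
Itgb2l: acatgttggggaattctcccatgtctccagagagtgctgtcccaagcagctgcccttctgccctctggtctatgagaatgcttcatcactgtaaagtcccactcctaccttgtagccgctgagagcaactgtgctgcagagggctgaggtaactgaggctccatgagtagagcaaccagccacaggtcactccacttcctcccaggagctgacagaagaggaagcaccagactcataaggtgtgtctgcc
Chil3: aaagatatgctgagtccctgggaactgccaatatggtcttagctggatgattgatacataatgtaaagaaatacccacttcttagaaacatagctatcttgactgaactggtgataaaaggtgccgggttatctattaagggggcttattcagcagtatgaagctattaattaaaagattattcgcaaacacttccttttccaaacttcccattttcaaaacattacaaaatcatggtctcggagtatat
These letters occurred in the windows of 4 of the 7 members, with a first base at −75 from the start in Ltf, at −138 and −11 in Ngp, at −216 in Lcn2 and at −19 in Mmp8. They did not occur in those of Camp, Itgb2l or Chil3, and 9.56% of 32851 promoter windows of this length held them. The PU.1 motif GAGGAA was in 4 of the 7 windows (Ltf, Lcn2, Mmp8 and Itgb2l, where it stood at −55 and −33) and in 23.3% of all. The STAT motif TTCNNNGAA was in Chil3 alone, at −172, and in 7.02% of all. The 3 motifs were searched on both strands, and a match is a description of the letters only.

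Several properties of the libraries bear on every value that follows. Total estimated counts were 6236320 to 16152286 in whole marrow and 21049178 to 33190370 in run 1 precursors. The 3 run 1 whole marrow libraries are the G-CSF, ZA and untreated replicate 2 libraries of the whole marrow table: their totals differed by at most 2 counts, and 99.8% of 46679 genes had TPM (abundance scaled by transcript length and library total) within 1% of each other. They are therefore not a second measurement of those mice. Small RNA genes took 39.1% of the TPM of untreated replicate 1, and 6.46% to 12.3% of the TPM of the other 8 whole marrow libraries. A larger share for these genes lowers the TPM of all others. In whole marrow 50 genes were at 1 TPM or more in all 5 libraries with G-CSF and at 0.1 TPM or less in the other 4, and 11 showed the reverse. None of the 9 granule genes is among them. For example, Fam166a was at 70.9 to 151 TPM in the 5 libraries with G-CSF and at 0 in the other 4, but at 0 to 9.55 TPM in the 6 run 1 precursor libraries with G-CSF. BC117090 was at 19.3 to 30.8 TPM in those 5 marrow libraries and at 0 in the other 4, and also at 0 in all 8 run 1 precursor libraries. G-CSF treatment and this on-or-off division of the whole marrow libraries cannot be told apart, and the statement applies to every marrow difference with against without G-CSF.

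Run 2 libraries were left out of the main values because granule genes went against their labels, as the plot of Ltf against Csf1r by run shows. Csf1r encodes CD115, the marker used in the sort. In run 1 the 8 precursor libraries had 70.2 to 337 TPM of Ltf and 43.3 to 77.9 TPM of Csf1r, while the 3 whole marrow libraries had 9207 to 12943 TPM of Ltf and 9.05 to 13.4 TPM of Csf1r. Of the 15 run 2 libraries labelled precursors, 6 had Ltf at 50% or more of the lowest run 1 marrow value, 8 were at most 2 times the highest run 1 precursor value, and 1 lay between. Of the 3 run 2 libraries labelled whole marrow, 2 had Ltf in the precursor range and 1 in the marrow range.

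**Figure D1:**
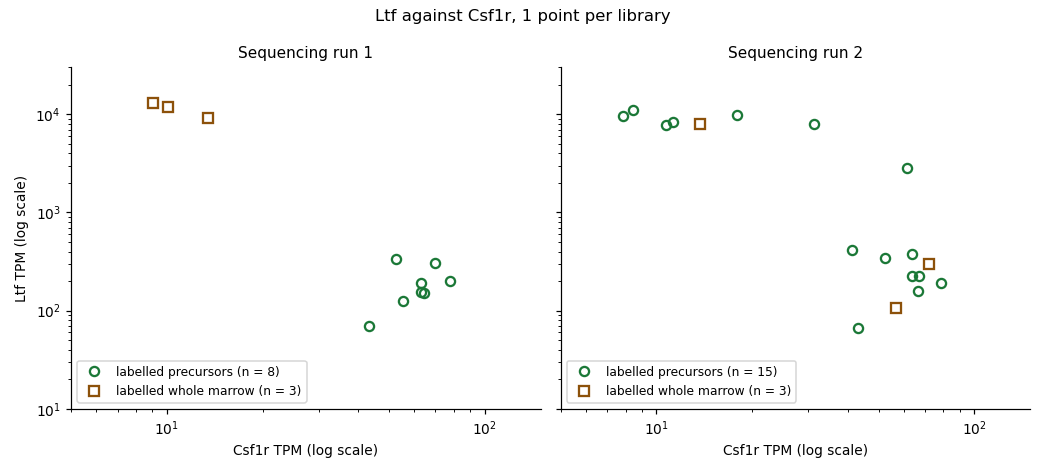
Ltf TPM (vertical, log scale) against Csf1r TPM (horizontal, log scale) in each library of the precursor table, by sequencing run, with circles for libraries labelled precursors and squares for those labelled whole marrow. In run 1 the labels separate, with Ltf at most 337 TPM in precursors and at least 9207 TPM in marrow; in run 2, 6 libraries labelled precursors lie at high Ltf and 2 labelled whole marrow at low Ltf.

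In whole marrow the 9 genes made up 1.94% to 2.57% of all TPM in 8 libraries and 0.91% in untreated replicate 1. Ltf was the highest of the 9 in every library, at 15469 and 15600 TPM in combined marrow, 11202, 12943 and 16142 TPM in G-CSF marrow, 11886 and 10370 TPM in ZA marrow and 3541 and 9207 TPM in untreated marrow. Ngp, Chil3, Lcn2 and Camp came next by TPM, in an order that varied among libraries. By read counts, which are not scaled by transcript length, Ngp was above Ltf in every library (log2 ratio of 0.449 to 1.058). Their ranges over the 9 libraries were 1067 to 3337 TPM for Ngp, 1597 to 4721 TPM for Chil3, 411 to 1892 TPM for Lcn2 and 1086 to 2459 TPM for Camp. Hp (87.7 to 358 TPM) and Mmp9 (56.7 to 232 TPM) held the next ranks in either order, followed by Mmp8 (35.0 to 106 TPM). Itgb2l was the lowest in every library, at 4.36 to 51.7 TPM. Untreated replicate 1, with its large small RNA share, held the lowest TPM of 7 of the 9 genes, Itgb2l and Chil3 being the exceptions.

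Levels between libraries are given from here as CPM, read counts scaled to the library size with edgeR's TMM factors, and changes as log2 fold changes ± standard error with Benjamini-Hochberg adjusted p over all genes tested. G-CSF marrow was set against untreated marrow for the effect of the cytokine by itself. Itgb2l and Chil3 were lower with G-CSF, and the other 7 were not called in either direction. Of the 9 genes 2 were called lower and 0 higher, against 6.91% of 14737 genes called lower and 4.93% called higher in this comparison. The median log2 fold change of the 9 was −0.02 and that of all genes 0.01. In bulk marrow, fewer cells of a type and less RNA per cell cannot be told apart.

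Itgb2l stood at 22.7, 17.3 and 26.6 CPM in the 3 G-CSF libraries, against 174 and 247 CPM in the untreated ones. Every G-CSF library lay below both untreated libraries, by a wide margin relative to the spread within either group. The log2 fold change was −3.25 ± 0.25 (edgeR adjusted p = 7.76e-05). Chil3 stood at 550, 595 and 489 CPM with G-CSF, against 2354 and 1627 CPM without treatment. Here too the groups were apart, with a log2 fold change of −1.87 ± 0.20 (edgeR adjusted p = 0.000489). Chil3 has a near-identical copy, Chil4, so how reads were divided between them is uncertain. Chil4 was at 0.0366 to 0.367 TPM in the 9 marrow libraries. Both calls held without any 1 library, with log2 fold changes of −3.48 to −2.98 for Itgb2l and −2.11 to −1.57 for Chil3. On the log2(TPM + 1) scale with limma, where the median of all genes was 0.61, the values were −2.20 (adjusted p = 0.0287) and −0.99 (adjusted p = 0.0459). With a pseudocount of 0.1 TPM the Chil3 call was lost (adjusted p = 0.0706), and with no filter on low values both were (adjusted p = 0.0647 for Itgb2l and 0.0534 for Chil3).

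**Figure D2:**
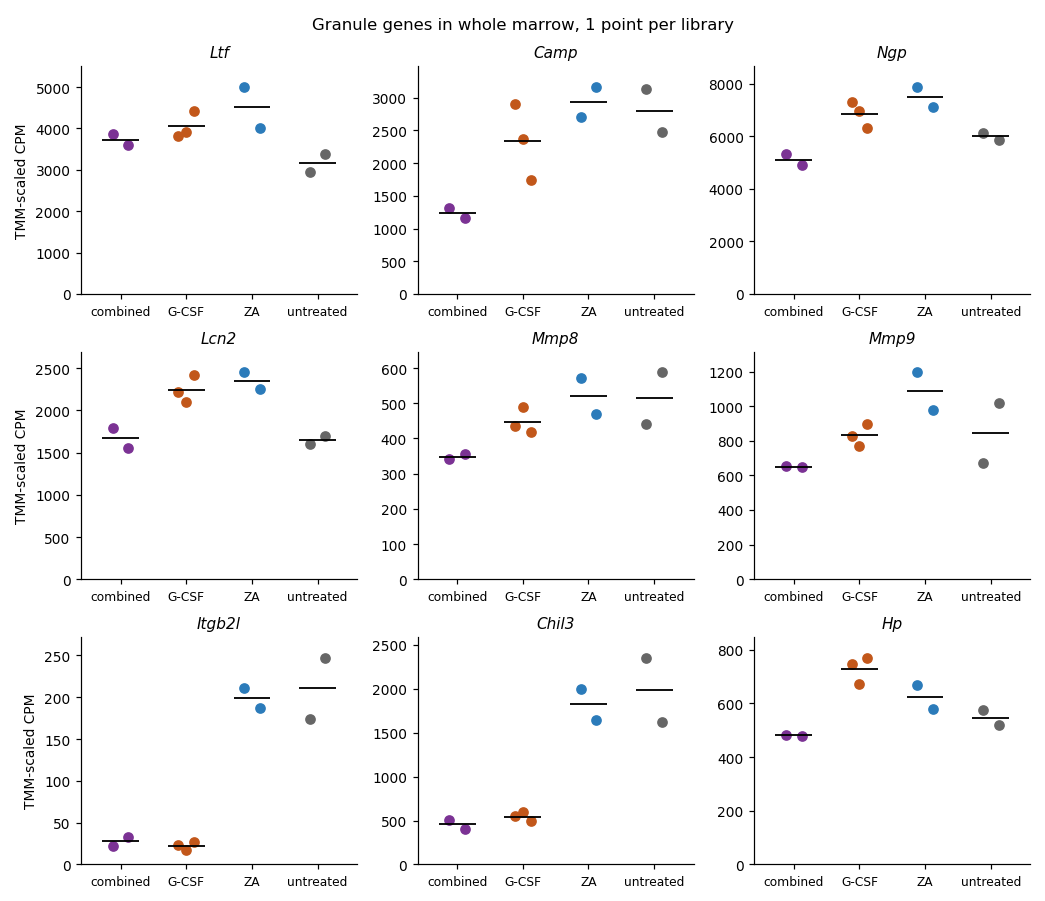
TMM-scaled CPM (vertical, linear from 0) of each of the 9 granule genes in the whole marrow libraries, 1 point per library and 1 panel per gene, for combined, G-CSF, ZA and untreated marrow; horizontal bars are group means. Itgb2l and Chil3 are low in all 5 libraries with G-CSF, and Camp is lowest in the 2 combined libraries at 1311 and 1153 CPM.

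Ltf, Ngp, Lcn2 and Hp had higher values in every G-CSF library than in the untreated ones, but were not called by edgeR. The share of all genes apart in this way is not given, so the separation is a description only. Ltf, lactoferrin, had 3823, 3925 and 4415 CPM in G-CSF marrow, against 2948 and 3372 CPM in untreated marrow. The groups were apart by a narrow gap and the difference was not called (0.36 ± 0.16, edgeR adjusted p = 0.170). Lcn2, lipocalin 2, had 2219, 2101 and 2423 CPM with G-CSF, against 1603 and 1699 CPM without (0.45 ± 0.14, edgeR adjusted p = 0.0747). Hp, haptoglobin, had 745, 673 and 771 CPM with G-CSF, against 574 and 519 CPM without (0.42 ± 0.14, edgeR adjusted p = 0.0806). With scaling by library totals alone, where the median over all genes was 0.44, edgeR called Ltf (0.78, adjusted p = 0.0172), Ngp (0.62, 0.00755), Lcn2 (0.87, 0.00821) and Hp (0.85, 0.00461) higher. DESeq2 called Lcn2 (0.44, adjusted p = 0.0194) and Hp (0.41, adjusted p = 0.0292) higher, and limma on log2(TPM + 1) called Hp higher (1.27, adjusted p = 0.0413), so these calls depend on the scaling and the tool. Ngp (0.19 ± 0.14, edgeR adjusted p = 0.412) and Camp (−0.26 ± 0.22, edgeR adjusted p = 0.465) were not called. The collagenase Mmp8 was at 436, 490 and 419 CPM with G-CSF, against 442 and 588 CPM without. The gelatinase Mmp9 was at 830, 769 and 898 CPM with G-CSF, against 669 and 1018 CPM without. For both genes the groups overlapped, and the log2 fold changes were −0.20 ± 0.17 and −0.02 ± 0.19. On the TPM scale and with scaling by library totals alone Camp, Mmp8 and Mmp9 had positive values.

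**Figure D3:**
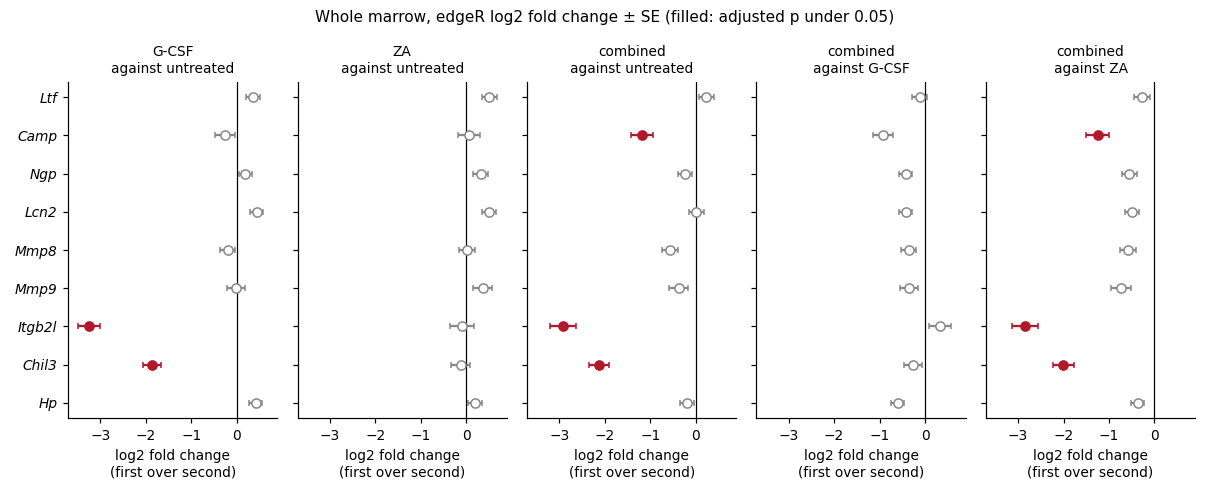
Log2 fold change ± SE (horizontal) of each granule gene (vertical) in 5 whole marrow comparisons from edgeR, with the first-named group over the second; filled points passed an adjusted p of 0.05. Itgb2l and Chil3 are filled wherever a group with G-CSF is set against a group without it, and Camp wherever combined marrow is set against a group without G-CSF.

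Other genes of the same pathway were counted beside them. Of 19 further secondary and tertiary granule genes, 18 were matched in the table and tested, with 1 higher and 1 lower in G-CSF marrow. Lrg1, a secreted glycoprotein, rose by 1.26 ± 0.19 on the log2 scale (edgeR adjusted p = 0.00343), and Slc11a1, a metal transporter of phagocytes, fell by 1.22 ± 0.29 (edgeR adjusted p = 0.0276). Of 9 regulators 3 were higher and 1 lower: Cebpd (1.08 ± 0.18), Cebpb (1.01 ± 0.25) and Gfi1 (0.81 ± 0.19) rose, and Runx1 (−1.55 ± 0.31) fell. Cebpe, the factor of secondary granule transcription, had a log2 fold change of 0.00 ± 0.21 (edgeR adjusted p = 0.995), and the G-CSF receptor gene Csf3r 0.00 ± 0.21 (edgeR adjusted p = 1.00). Of the 6 primary granule genes 4 rose, among them myeloperoxidase, Mpo (1.04 ± 0.19, edgeR adjusted p = 0.00966), and 0 fell. Of 7 mature neutrophil genes Ly6g (1.12 ± 0.15) and Stfa2 (3.40 ± 0.63) rose and 0 fell. S100a8 (−0.54 ± 0.25, edgeR adjusted p = 0.179) and S100a9 (−0.26 ± 0.24, edgeR adjusted p = 0.506), the calprotectin subunits, had negative values that were not called. The 7 genes summed to 11280 to 20145 CPM in G-CSF marrow and 19281 to 21740 CPM in untreated marrow. Of 9 inhibitors and receptors of granule proteins 7 were tested, and the haptoglobin-haemoglobin receptor Cd163 fell (−1.22 ± 0.34, edgeR adjusted p = 0.0452). The tissue inhibitor Timp1 was at 0 to 0.867 TPM in the 9 marrow libraries.

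Markers of other cells moved with the same contrast. The summed level of the 8 monocyte genes was 543 to 668 CPM in G-CSF marrow and 1351 to 1584 CPM in untreated marrow, and 5 of the 8 were called lower, with none at 0 in all libraries of a group. Chil3 is also made by monocytes, and the part of these cells in the Chil3 and Itgb2l differences was not tested. The summed level of the 6 primary granule genes was 3190 to 4005 CPM with G-CSF and 1578 to 2140 CPM without. The 5 erythroid genes summed to 67408 to 101050 CPM in G-CSF marrow and 171281 to 241509 CPM in untreated marrow, with 3 of the 5 called lower. The 4 megakaryocyte genes summed to 920 to 1216 CPM in G-CSF marrow and 120 to 313 CPM in untreated marrow, with 1 called higher. Of 5 T and NK cell genes 2 were higher and 3 lower, and of the macrophage and B lineage genes 1 each was lower. No gene of these lists was at 0 in all libraries of a group, and the part of these cells in the granule gene values was not tested.

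ZA marrow was set against untreated marrow to ask what the bisphosphonate does alone. None of the 9 genes was called, against 0.00679% of 14737 genes called higher and 0.0271% called lower by edgeR; 2 of the 9 had an unadjusted p under 0.05, and DESeq2 also called 0. Those 2 were Ltf and Lcn2. Ltf was at 4998 and 4017 CPM in ZA marrow, against 2948 and 3372 CPM in untreated marrow (0.51 ± 0.17, edgeR adjusted p = 0.447). Lcn2 was at 2451 and 2249 CPM with ZA, against 1603 and 1699 CPM without (0.51 ± 0.16, edgeR adjusted p = 0.407). For both genes the ZA libraries lay above the untreated ones, as they did for Ngp and Hp. With 2 libraries against 2, and the share of all genes apart in this way not given, the separation is a description only. Itgb2l, which was called lower under G-CSF, was at 211 and 187 CPM with ZA, between the untreated values of 174 and 247 CPM (−0.08 ± 0.26, edgeR adjusted p = 0.944). Chil3 was at 2003 and 1650 CPM with ZA, likewise between its untreated values (−0.12 ± 0.22, edgeR adjusted p = 0.888). None of the 18 other granule genes, 9 regulators or 6 primary granule genes was called.

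Combined marrow was set against untreated marrow. Itgb2l, Chil3 and Camp were lower, which is 3 of 9 called lower and 0 higher, against 4.55% of 14737 genes called lower and 3.17% called higher. Itgb2l was at 22.3 and 33.3 CPM in combined marrow, against 174 and 247 CPM in untreated marrow (−2.92 ± 0.28, edgeR adjusted p = 0.000454). Chil3 was at 508 and 402 CPM in combined marrow, against 2354 and 1627 CPM (−2.13 ± 0.23, edgeR adjusted p = 0.000812). The untreated libraries are the same as in the G-CSF comparison. Camp, the cathelicidin gene, was at 1311 and 1153 CPM in combined marrow, against 3132 and 2475 CPM in untreated marrow. Both combined libraries lay below both untreated ones (−1.19 ± 0.24, edgeR adjusted p = 0.0223). The Camp call was lost without combined replicate 1 (adjusted p = 0.114) or 3 (0.136), without untreated replicate 1 (0.0967) and with scaling by library totals alone (−0.56, adjusted p = 0.0580). On the log2(TPM + 1) scale Camp was at 0.02, where the median over all genes was 0.87, which is −0.85 after subtracting that median. With limma on that scale Itgb2l was lower (−1.62, adjusted p = 0.0482) and Chil3 was not called (−0.91, adjusted p = 0.0513). With a pseudocount of 0.1 TPM limma called neither (adjusted p = 0.0637 for Itgb2l and 0.0737 for Chil3), nor did it with no filter (0.107 and 0.0570). The other 6 genes had log2 fold changes of −0.56 to 0.24 and were not called, and for Ngp, Mmp8, Mmp9 and Hp the negative sign turned positive on the TPM scale and with library totals alone. With library totals alone, where the median of all genes was 0.59, edgeR called Ltf (0.83, adjusted p = 0.0184), Lcn2 (0.62, 0.0320) and Ngp (0.38, 0.0476) higher, so that 2 of the 9 were lower and 3 higher. Limma on log2(TPM + 1) also called Ltf higher (1.44, adjusted p = 0.0428), and DESeq2 called Mmp8 lower (−0.56, adjusted p = 0.0460). Of the 18 other granule genes 3 were lower (Cyba, Slc11a1 and Lyz2) and 0 higher, and of the 9 regulators none was called. The 7 mature neutrophil genes summed to 8698 to 10183 CPM in combined marrow, against 19281 to 21740 CPM in untreated marrow, with S100a8 and S100a9 called lower and Stfa2 higher. The 8 monocyte genes summed to 518 to 576 CPM in combined marrow, against 1351 to 1584 CPM in untreated marrow, and 5 of the 8 were called lower. The 5 erythroid genes summed to 49649 to 51439 CPM in combined marrow, against 171281 to 241509 CPM in untreated marrow, and all 5 were called lower. The 4 megakaryocyte genes summed to 873 to 1274 CPM in combined marrow, against 120 to 313 CPM in untreated marrow, with none called. The part of these cells in the Camp, Itgb2l and Chil3 differences was not tested.

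Combined marrow was also set against ZA marrow, the same G-CSF treatment in mice that all had ZA. All 9 log2 fold changes were negative, though on the TPM scale 6 of them were positive and with library totals alone those of Ltf and Hp were. Of the 9 genes 3 were called lower and 0 higher, against 2.46% of 14737 genes called lower and 1.87% called higher. Itgb2l was at 22.3 and 33.3 CPM in combined marrow, against 211 and 187 CPM in ZA marrow (−2.84 ± 0.28, edgeR adjusted p = 0.000534). Chil3 was at 508 and 402 CPM, against 2003 and 1650 CPM in ZA marrow (−2.01 ± 0.23, edgeR adjusted p = 0.00112). These 2 comparisons of combined marrow share its libraries, and are given side by side. Camp was at 1311 and 1153 CPM, against 2709 and 3161 CPM in ZA marrow (−1.25 ± 0.25, edgeR adjusted p = 0.0232). Its call was lost without either combined replicate (adjusted p = 0.118 and 0.182) or either ZA replicate (0.0735 and 0.0894). DESeq2 called 6 of the 9 lower, adding Ngp (−0.52, adjusted p = 0.0106), Lcn2 (−0.46, 0.0490) and Mmp9 (−0.71, 0.0276). In edgeR Mmp9 (−0.74) was called with no filter (adjusted p = 0.0314) and without untreated replicate 1 (0.0493) or 2 (0.0447). With limma on log2(TPM + 1) none of the 9 was called (adjusted p = 0.110 for Itgb2l, 0.0813 for Chil3 and 0.320 for Camp). The mature neutrophil genes summed to 20687 to 21983 CPM in ZA marrow, the monocyte genes to 1130 to 1267 CPM and the erythroid genes to 133542 to 156302 CPM, all above the combined values given before; their part in these differences was not tested either. Of the other granule genes Cyba, a subunit of the oxidase that makes superoxide, fell here (−0.89 ± 0.21, edgeR adjusted p = 0.0499) and against untreated marrow (−0.97 ± 0.21, adjusted p = 0.0270).

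Combined marrow against G-CSF marrow asks what ZA adds under G-CSF. None of the 9 genes was called, against 0.00679% of 14737 genes called higher and 0% called lower by edgeR. At an unadjusted p under 0.05 there were 4 of the 9, Camp, Hp, Ngp and Lcn2, and 1530 of all genes. Camp was at 1311 and 1153 CPM in combined marrow, against 2908, 2375 and 1736 CPM in G-CSF marrow (−0.93 ± 0.23, edgeR adjusted p = 0.262). Hp was at 483 and 480 CPM in combined marrow, against 745, 673 and 771 CPM in G-CSF marrow (−0.60 ± 0.14, edgeR adjusted p = 0.257). The groups did not overlap for either gene, nor for Ngp, Lcn2, Mmp8 and Mmp9. The share of all genes without overlap is not given. DESeq2 called Camp (adjusted p = 0.00888) and Hp (adjusted p = 0.00700) lower, as edgeR with no filter did Camp (adjusted p = 0.00157). Ngp was at 5319 and 4915 CPM, against 7314, 6982 and 6305 CPM in G-CSF marrow (−0.42 ± 0.15, edgeR adjusted p = 0.381). Itgb2l (0.33 ± 0.25) and Chil3 (−0.26 ± 0.20), the genes that were low with G-CSF, overlapped between these groups. The mature neutrophil genes summed to 8698 to 10183 CPM in combined marrow, against 11280 to 20145 CPM in G-CSF marrow. The primary granule genes summed to 2340 to 2668 CPM in combined marrow, against 3190 to 4005 CPM in G-CSF marrow, and the erythroid genes to 49649 to 51439 CPM, against 67408 to 101050 CPM. These 3 sums did not overlap between the groups, and none of their genes was called. The sums of the further granule genes, regulators, macrophage, T and NK cell, and eosinophil, basophil and mast cell genes were also lower without overlap. The B lineage sum was higher, at 721 to 737 CPM in combined marrow, against 528 to 703 CPM in G-CSF marrow. The monocyte, megakaryocyte, stromal and inhibitor sums overlapped. Separation was thus not particular to the 3 lists, and the part of any of these cells in the Camp and Hp values was not tested.

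The interaction term asks whether the change with ZA under G-CSF differed from the change with ZA alone. None of the 9 was called, against 0.00679% of 14737 genes called higher and 0% called lower by edgeR, while 6 of the 9 had an unadjusted p under 0.05, against 11.8% of all genes. Those 6 had negative terms. Lcn2 had −0.93 ± 0.21 (edgeR adjusted p = 0.190), Hp −0.79 ± 0.20 (0.239), Ngp −0.74 ± 0.21 (0.282), Camp −0.99 ± 0.33 (0.330), Ltf −0.63 ± 0.24 (0.368) and Mmp9 −0.72 ± 0.28 (0.381). DESeq2 called 3 of them, Lcn2 (−0.90, adjusted p = 0.00372), Hp (−0.76, adjusted p = 0.0244) and Ngp (−0.71, adjusted p = 0.0296). For Itgb2l (0.41 ± 0.36) and Chil3 (−0.14 ± 0.29) the term was within 1.5 standard errors of 0.

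A ratio within a library does not depend on how libraries are scaled, so each member was also set against Ltf in the same library. The log2 ratio of Itgb2l to Ltf was −7.35 ± 0.39 in the 5 marrow libraries with G-CSF and −4.21 ± 0.36 in the 4 without (mean ± SD). The difference of −3.14 had p = 0.0159 in an exact two-sided permutation test, the smallest p that 5 against 4 libraries allow, and 0.0423 after Benjamini-Hochberg adjustment over the 8 ratios. Chil3 to Ltf was −2.96 ± 0.21 with G-CSF and −0.99 ± 0.46 without, a difference of −1.96 with the same exact p. Mmp9 to Ltf was −2.38 ± 0.14 with G-CSF and −1.99 ± 0.18 without, a difference of −0.38, again with the same exact p. Itgb2l and Chil3 were already known to be lower in these libraries, so their ratios are not independent of the results above. Mmp9 passed after adjustment only because those 2 ratios also had the smallest p. In each of these 3 ratios the 5 libraries with G-CSF all lay below the other 4. The remaining ratios overlapped between the groups. Camp differed by −0.74 (exact p = 0.0952), Mmp8 by −0.40 (exact p = 0.0635) and Ngp by −0.20 (exact p = 0.190). Lcn2 (−0.04, exact p = 0.683) and Hp (0.02, exact p = 0.937) had nearly the same mean ratio to Ltf in both groups. The Camp ratio was lowest in combined replicates 1 (−1.56) and 3 (−1.64) and G-CSF replicate 3 (−1.35). Without any 1 library the 3 ratios no longer passed after adjustment (exact permutation test, adjusted p = 0.0571 to 0.0952). Fewer libraries made the smallest p allowed too high for so few ratios to pass, so this loss does not measure robustness. The differences were then −3.293 to −2.995 for Itgb2l, −2.069 to −1.738 for Chil3 and −0.432 to −0.296 for Mmp9.

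**Figure D4:**
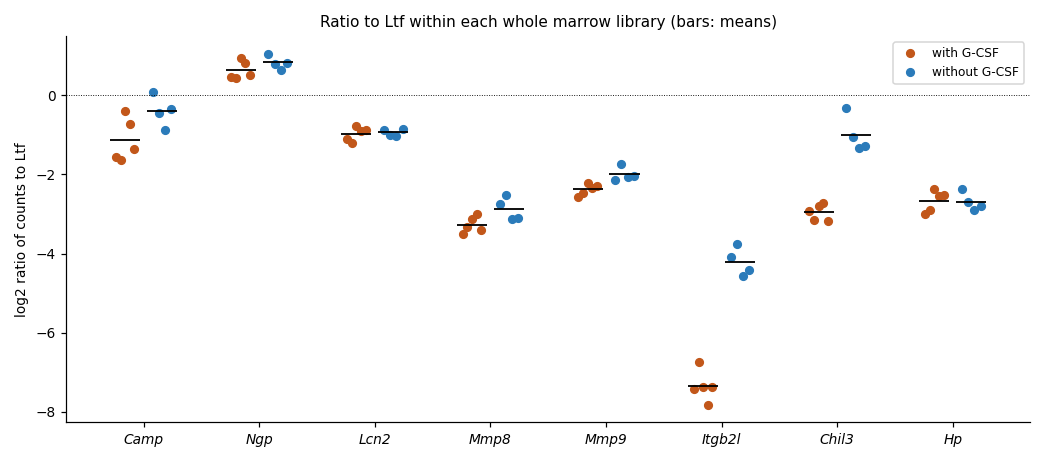
Log2 ratio of each member's count to that of Ltf (vertical) in each whole marrow library, for the 5 libraries with G-CSF (left of each pair) and the 4 without; bars are means. The groups are apart for Itgb2l, Chil3 and Mmp9 and overlap for the other 5 genes.

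The genes most like each member across the 9 marrow libraries were taken as those with the highest Pearson correlation of log2(CPM + 1) among 9916 protein-coding genes with a mean of at least 5 CPM. For Itgb2l these were Fam234b and Ppfia4 (r = 0.988 for both). For Chil3 they were Pnp2 (0.993) and Gm49342 (0.991). Both pairs follow the division between libraries with and without G-CSF, so the values describe that division. For Ngp they were Mcemp1 (0.974) and Retnlg (0.963), for Ltf B4galnt1 (0.954) and Lbp (0.952), and for Lcn2 Pgd (0.952) and Slc35b1 (0.946). For Camp they were Fxyd5 (0.971) and Ptpn18 (0.970). Among the members themselves Lcn2 correlated with Ltf at 0.84 and with Ngp at 0.81, and Camp with Ngp at 0.79, while Ltf and Camp had −0.07. All these values share the same 9 libraries and their scaling.

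Sorted precursors were set against whole marrow within run 1, with treatment as a term, to ask where the granule genes are expressed. Each fold change and test here rests on the 5 precursor libraries of G-CSF, ZA and untreated mice against 3 marrow libraries, since run 1 has no combined marrow library, while the ranges given for precursors cover all 8. Of the 9 genes 9 were called lower in precursors, against 23.5% of 16185 genes called lower and 21.1% called higher. Run 2 was left out because granule genes, Ltf among them, went against the labels, so this count is not independent of that choice. With the run 2 libraries as labelled, all 9 log2 fold changes were positive (Ltf 2.00, Hp 0.47) and none was called. The sort removed cells with Ly-6G/Ly-6C and CD11b, which mature neutrophils carry. The 7 mature neutrophil genes summed to 154 to 466 CPM in the 8 precursor libraries and 22841 to 25409 CPM in the 3 marrow libraries. The 8 monocyte genes summed to 6792 to 7672 CPM in precursors and 819 to 1915 CPM in marrow, and all 8 were called higher. The order of the granule genes changed. By TPM, Chil3 was the highest of the 9 in each of the 8 precursor libraries, with Hp and Ltf next. By CPM, Hp stood above Chil3 in some precursor libraries, such as the ZA library (357 against 338). The lowest Chil3 value, 247 CPM in a library with G-CSF, was also below the lowest Hp value of any precursor library, 305 CPM.

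Ltf was at 70.2 to 337 TPM in the 8 precursor libraries (median 172), against 12943, 11886 and 9207 TPM in G-CSF, ZA and untreated marrow. The log2 fold change was −6.73 ± 0.25 (edgeR adjusted p = 3.22e-06), and precursors held 1.23% to 3.32% of the marrow level under the same treatment. Camp (13.3 to 98.8 TPM, against 1860 to 2260 TPM in marrow), Ngp (27.1 to 112 TPM, against 2324 to 3333 TPM) and Lcn2 (10.8 to 42.4 TPM, against 992 to 1480 TPM) had log2 fold changes of −6.48 ± 0.21, −6.20 ± 0.26 and −6.21 ± 0.22. The groups were far apart for these 4 genes. Mmp9 had the largest fall of the 9, to 0.166 to 3.51 TPM in precursors, against 179 to 200.3 TPM in marrow (−8.13 ± 0.60, edgeR adjusted p = 9.53e-05). The other metalloproteinase, Mmp8, fell less, to 6.35 to 18.6 TPM in precursors, against 89.7 to 106 TPM in marrow (−4.20 ± 0.26, edgeR adjusted p = 2.62e-05). Itgb2l was at 0.343 to 1.67 TPM in precursors, against 4.36, 38.4 and 51.7 TPM in G-CSF, ZA and untreated marrow (−5.20 ± 0.52, edgeR adjusted p = 0.000303).

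Hp and Chil3 had the smallest differences of the 9. Hp was at 96.4 to 208 TPM in precursors (median 176), against 282, 202 and 180 TPM in G-CSF, ZA and untreated marrow. In CPM the groups did not overlap, at 305 to 380 in precursors and 676 to 876 in marrow (−1.24 ± 0.10, edgeR adjusted p = 9.92e-05). On the TPM scale they did overlap, and limma gave −0.35 (adjusted p = 0.163) where the median of all genes was 0.81, which is −1.17 relative to that median. Chil3 was at 710 to 3331 TPM in precursors (median 1341), against 1944, 4721 and 4403 TPM in G-CSF, ZA and untreated marrow. Among precursors its highest value was in G-CSF replicate 1 and its lowest in combined replicate 1, and these libraries differed 4.69-fold. The log2 fold change of −2.01 ± 0.61 (edgeR adjusted p = 0.0352) had the largest adjusted p of the 9. The call was lost on the TPM scale (−1.06, adjusted p = 0.121), with no filter on low counts (adjusted p = 0.151), with library totals alone (0.0834), and without marrow untreated replicate 2 (0.150), marrow ZA replicate 2 (0.138), precursor untreated replicate 2 (0.133), precursor G-CSF replicate 3 (0.0612) or precursor ZA replicate 3 (0.123). Precursors averaged 107% of the marrow TPM of Chil3 within G-CSF mice, 27.8% within ZA mice and 31.1% within untreated mice.

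**Figure D5:**
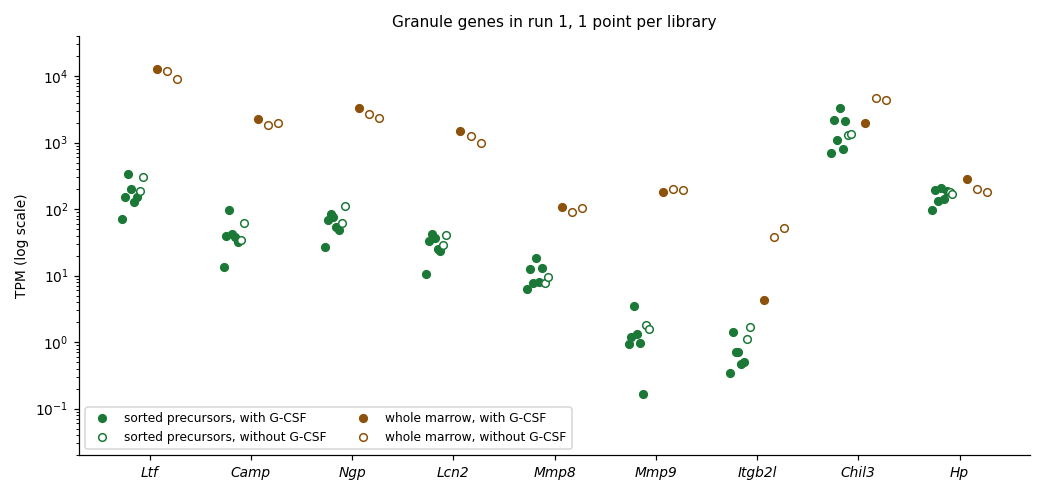
TPM (vertical, log scale) of the 9 granule genes in run 1, with sorted precursors (green, 8 libraries) left of whole marrow (brown, 3 libraries) for each gene; filled points are mice with G-CSF and open points mice without. Chil3 and Hp reach the marrow range in precursors, and the other 7 genes lie below it in all 8 precursor libraries.

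The other granule genes and their regulators were tested in the same comparison. Of the 17 further granule genes tested 14 were lower and 0 higher in precursors, with a median log2 fold change of −4.32 against 0.05 over all genes. Olfm4, the olfactomedin of a neutrophil subset, fell by 7.41 ± 0.40 on the log2 scale, and the formyl peptide receptor gene Fpr1 had a log2 fold change of −7.12 ± 0.37. Cybb (−0.38 ± 0.24) and Lyz2 (−0.37 ± 0.17), which monocytes also use, were not called. All 9 regulators were called, 5 higher and 4 lower in precursors. Cebpe fell by 4.10 ± 0.17 (edgeR adjusted p = 4.55e-06) and Gfi1 by 1.58 ± 0.18, while Cebpa (1.55 ± 0.11) and Cebpb (1.29 ± 0.18) were among those higher. The G-CSF receptor gene Csf3r was at 24.8 to 51.4 TPM in precursors, against 41.5 to 46.9 TPM in marrow (−1.02 ± 0.17, edgeR adjusted p = 0.00281). Of the 6 primary granule genes Ctsg (0.88 ± 0.21) and Cst7 (0.66 ± 0.17) were higher and Ms4a3 (−0.66 ± 0.22) lower. Mpo, of the earliest granule stage, was at 709 to 1325 TPM in precursors, against 222 to 601 TPM in marrow (0.71 ± 0.25, edgeR adjusted p = 0.0536). Of 9 inhibitors and receptors of granule proteins 6 were tested, with 3 lower and 1 higher in precursors. The metalloproteinase inhibitor genes Timp2, Timp3 and Reck were lower, with log2 fold changes of −4.47 ± 0.24, −5.79 ± 0.61 and −5.28 ± 0.60.

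Within run 1 precursors, the 6 libraries with G-CSF were set against the 2 without. None of the 9 genes was called, against 0% of 18779 genes called higher and 0% called lower by edgeR. At an unadjusted p under 0.05 there were 1 of the 9 and 682 of all genes, and DESeq2 called 24 genes and none of the 9. The 1 gene was Itgb2l, at 1.78, 4.44 and 2.78 CPM with the combination and 2.11, 1.81 and 1.58 CPM with G-CSF, against 3.61 CPM with ZA and 5.29 CPM untreated. The ranges overlapped through combined replicate 2 (−0.90 ± 0.35, edgeR adjusted p = 1.00). Mmp8 was at 35.3 to 64.0 CPM in the 6 libraries with G-CSF, above the 28.9 and 35.1 CPM without (0.46 ± 0.22, edgeR adjusted p = 1.00). Chil3, lower with G-CSF in marrow, was at 247 to 798 CPM in precursors with G-CSF, against 338 and 345 CPM without (0.41 ± 0.48, edgeR adjusted p = 1.00). Whether the G-CSF difference of Chil3 or Itgb2l itself differs between marrow and precursors was not tested.

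Combined precursors were set against G-CSF precursors, 3 libraries each. None of the 9 genes was called, against 0% of 18779 genes in either direction by edgeR, and none of the 9 but 1306 of all genes had an unadjusted p under 0.05; DESeq2 called 58 genes and none of the 9. Ltf was at 29.8, 39.6 and 108 CPM in combined precursors, against 49.3, 39.2 and 38.5 CPM in G-CSF precursors (0.48 ± 0.48, edgeR adjusted p = 0.865). Camp was at 19.1, 34.5 and 106 CPM in combined precursors, against 34.7, 39.9 and 27.8 CPM in G-CSF precursors (0.65 ± 0.63, edgeR adjusted p = 0.862). Combined replicate 3 held the highest value of both genes, and of the summed mature neutrophil genes as well (466 CPM, against 154 to 367 CPM in the other 7 precursor libraries). Without it the log2 fold changes of Ltf, Camp, Ngp and Lcn2 were −0.28, −0.35, −0.13 and −0.23, opposite in sign. Mmp9 was at 5.58, 4.26 and 15.5 CPM, against 0.594 to 4.52 CPM in G-CSF precursors (1.45 ± 0.78, edgeR adjusted p = 0.750), with the groups overlapping, and the value was 0.67 without combined replicate 3 and 0.95 without G-CSF replicate 3.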

How the data were processed

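RNA-seq libraries of whole mouse bone marrow and sorted osteoclast precursors were analysed, 38 columns in all. The authors deposited estimated counts per gene and TPM (length-scaled abundances); Salmon, DESeq2 1.16.1 and the build mm10 are named per the submitters' processing notes, with no further roles. The files do not state the strand setting of the counting. The 9 members and the gene lists were chosen with earlier results of these data known. They were matched through GENCODE vM21 identifiers on GRCm38, and promoters come from RefSeq.

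Estimated counts as deposited were rounded, filtered (minimum count 10, minimum total 15), scaled by TMM and tested with edgeR 4.0.16 (quasi-likelihood, R 4.3.3), with Benjamini-Hochberg adjustment over all genes and a threshold of 0.05. Each standard error was obtained by dividing the size of the log2 fold change by the root of its quasi-likelihood F statistic. The 4 marrow groups shared a fit, as did the 8 run 1 precursor libraries; precursors against marrow had a fit and filter of its own, on 5 precursor and 3 marrow libraries. CPM values are TMM-scaled, so they are not comparable between the whole marrow and precursor tables. Levels between genes are given as the deposited TPM. Ratios to Ltf (rounded count + 1) were compared by exact permutation tests in SciPy 1.17.1. Alternatives used DESeq2 1.42.0, limma 3.58.1 on log2(TPM + 1) or log2(TPM + 0.1), library totals, DESeq2's size factors in edgeR, no filter, the replicate number as a block, the compared groups alone, run 2 libraries, and each library left out in turn. The edgeR steps were tested on simulated data. Depth gave a floor, 3 counts, of 0.186 to 0.481 CPM in marrow and 0.0904 to 0.143 CPM in run 1 precursors, which covers counting error only. Genes named beyond the members come from the lists, or are the 2 most correlated with a member. The division examples Fam166a and BC117090, and Chil4, were named after their values were seen.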

Additional observations from a re-analysis of the deposited data

Results flagged for a closer look

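In run 2, where labels and granule genes disagree, Dixon's test set a library apart from its labelled group in 13 of 27 gene-and-group sets. Chance picks about 1 in 20 of such sets where they are independent. Here the members vary together, so the 13 are not separate findings. All 13 belong to a pair of libraries. The library labelled combined precursor replicate 3 had 8016 TPM of Ltf, against 66.0 to 419 TPM in the other 3 of its group. It also had 819 TPM of Camp (others 14.3 to 98.7), 1742 TPM of Ngp (others 26.3 to 110), 788 TPM of Lcn2 (others 10.2 to 47.5) and 60.4 TPM of Mmp8 (others 6.28 to 8.54). Its Mmp9 was at 123 TPM (others 0.866 to 4.60) and its Itgb2l at 7.27 TPM (others 0.330 to 0.776). The library labelled G-CSF precursor replicate 2 had 11035 TPM of Ltf, against 158 to 2815 TPM in the other 4 of its group. It also had 2152 TPM of Camp (others 34.4 to 610), 3080 TPM of Ngp (others 54.1 to 888) and 1372 TPM of Lcn2 (others 25.5 to 370.2). Its Mmp8 was at 97.5 TPM (others 13.8 to 35.8) and its Mmp9 at 162 TPM (others 0.372 to 37.5). Hp and Chil3 did not set these libraries apart.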

How the results depend on the processing

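Over the members, Itgb2l and Chil3 kept a negative sign against marrow without G-CSF under every alternative run, in the G-CSF, combined-against-untreated and combined-against-ZA comparisons. The cause of each change given here was not tested. The replicate number was also used as a block. Same-numbered marrow libraries did not deviate together (correlations of −0.039 to 0.112), so the numbers are not taken as pairs. Under the block 0 genes were called for ZA against untreated, 481 for combined against untreated, 0 for combined against G-CSF, 387 for combined against ZA and 3 for the interaction; Mmp9 was 0.018 (G-CSF) and Chil3 0.068 (ZA). Where leaving out a library left a group with 1, that library was assumed to vary like the others.

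The members called under G-CSF were 2 (both lower), but 6 with library totals (2 lower and 4 higher), 4 with DESeq2 (2 lower and 2 higher), 3 on TPM with a pseudocount of 1 (2 lower and 1 higher), 1 on TPM with a pseudocount of 0.1 and 0 on TPM with no filter. For combined against untreated they were 3 (all lower), but 5 with library totals (2 lower and 3 higher), 2 on TPM with a pseudocount of 1 (1 lower and 1 higher) and 0 on TPM with a pseudocount of 0.1 or no filter. DESeq2 added Mmp8 there, and Camp was lost without certain single libraries, as given above. For combined against G-CSF they were 0, but 1 with no filter and 2 with DESeq2, and for combined against ZA 3, but 6 with DESeq2 and 0 in all TPM fits. Against ZA, edgeR with no filter also added Mmp9. Leaving out certain single libraries lost Camp or added Mmp9 there, as given above. For the interaction they were 0, but 1 with no filter and 3 with DESeq2. For precursors against marrow they were 9, but 0 in run 2 libraries. There the Chil3 call was also lost with library totals, with no filter and without certain single libraries, as given above. In all TPM fits both the Chil3 and the Hp call were lost. Ratios to Ltf passed for 3 members, and for 0 without any 1 library, where Benjamini-Hochberg values were 0.0571 to 0.0952. The higher smallest p of fewer libraries sets that outcome, which therefore does not measure robustness.

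All genes called for G-CSF were 1746, but 3757 with library totals, 3206 with no filter and 836 to 1706 leaving out a library. For ZA they were 5, but 1 with totals, 634 with no filter, 133 with DESeq2, 28, 34 and 30 on TPM (pseudocount 1, pseudocount 0.1, no filter), 2 with the groups alone and 0 to 23 leaving out a library. For combined against untreated they were 1137, but 4039, 2540 and 1740 (totals, no filter, DESeq2), 4183, 3098 and 2904 on TPM, 748 with the groups alone and 296 to 1353 leaving out a library. For combined against G-CSF they were 1, but 0, 557 and 178, then 27, 25 and 36 on TPM, 5 with the groups alone and 0 to 18 leaving out a library. For combined against ZA they were 638, but 1587 with no filter, 984 with DESeq2, 323 and 341 on TPM with pseudocounts of 1 and 0.1, and 251 to 713 leaving out a library. For the interaction they were 1, but 0, 746 and 249, then 24, 47 and 31 on TPM and 0 to 10 leaving out a library. In precursors with against without G-CSF they were 0, but 2 with no filter, 24 with DESeq2, 170, 190 and 361 on TPM and 0 to 1 leaving out a library. In combined against G-CSF precursors they were 0, but 1 with no filter, 58 with DESeq2 and 3, 13 and 1 on TPM. In precursors against marrow they were 7220, but 0 in run 2 libraries.

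Log2 fold changes changed sign as follows. With library totals, G-CSF gave Camp 0.17, Mmp8 0.20 and Mmp9 0.38; ZA gave Itgb2l 0.075 and Chil3 0.092. Combined against untreated gave Ngp 0.38, Mmp8 0.02, Mmp9 0.20 and Hp 0.43, combined against G-CSF gave Ltf 0.052, and combined against ZA gave Ltf 0.15 and Hp 0.047. On TPM (pseudocount 0.1 second where it differs), G-CSF gave Camp 0.57 and 0.58, Mmp8 0.66 and 0.67, Mmp9 0.86 and 0.87; ZA gave Itgb2l 0.37 and 0.39 and Chil3 0.35. Combined against untreated gave Camp 0.024, Ngp 0.97, Mmp8 0.64 and 0.65, Mmp9 0.85 and 0.86, and Hp 1.02. Combined against G-CSF gave Ltf 0.23 and Chil3 0.08 and 0.081, and combined against ZA gave Ltf 0.48, Ngp 0.20, Lcn2 0.26, Mmp8 0.17 and 0.18, Mmp9 0.02 and 0.021, and Hp 0.38. On TPM, precursors with against without G-CSF gave Camp −0.31 and −0.32, and combined against G-CSF precursors gave Ltf −0.021 and −0.023, Ngp −0.11 and −0.12, and Lcn2 −0.17 and −0.18. With no filter Mmp9 was 0.024 (G-CSF) and Hp 0.00 (precursors), and Mmp8 under ZA was −0.002 with DESeq2's size factors and −0.005 with DESeq2. For precursors with against without G-CSF, additive terms gave Camp −0.03. There the 17 libraries of both runs that the labels put in the final comparison gave Camp −3.65, Mmp8 −1.99 and Chil3 −1.08. For members negative in the main fit, the lowest values over all alternatives were Mmp9 −5.43, Ltf −4.37, Itgb2l −4.23, Ngp −4.10 and Lcn2 −3.88. Run 2 libraries gave, for precursors against marrow, Ltf 2.00, Camp 1.99, Ngp 1.78, Lcn2 1.80, Mmp8 1.25, Mmp9 2.32, Itgb2l 1.13, Chil3 0.92 and Hp 0.47.

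Leaving out 1 library gave these ranges where the sign changed. For G-CSF Mmp8 was −0.38 to 0.02 (positive without untreated 2) and Mmp9 −0.28 to 0.32 (positive without untreated 2 or G-CSF 2). For ZA Camp was −0.10 to 0.24, Mmp8 −0.18 to 0.24, Itgb2l −0.32 to 0.19 and Chil3 −0.37 to 0.16. Lcn2 was −0.086 to 0.12 for combined against untreated, and Chil3 −0.42 to 0.11 for the interaction. In precursors with against without G-CSF, Camp was −0.43 to 0.48, Ngp −0.72 to 0.12, Lcn2 −0.34 to 0.10 and Hp −0.064 to 0.064. In combined against G-CSF precursors, Ltf was −0.28 to 0.80, Camp −0.35 to 1.04, Ngp −0.13 to 0.49 and Lcn2 −0.23 to 0.53, all 4 negative only without combined 3, and Chil3 was −0.74 to 0.044. The differences in ratio to Ltf were −0.088 to 0.019 for Lcn2 and −0.052 to 0.13 for Hp.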

Other observations

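Some libraries carry the same group and replicate number in both runs, and their granule genes can be set side by side. The run 2 library labelled whole marrow G-CSF replicate 2 had 106 TPM of Ltf, 52.9 TPM of Ngp, 799 TPM of Chil3 and 56.8 TPM of Csf1r. The run 1 precursor G-CSF replicate 2 had 126 TPM of Ltf, 53.6 TPM of Ngp, 812 TPM of Chil3 and 55.2 TPM of Csf1r. The run 2 library labelled precursor G-CSF replicate 2 had 11035 TPM of Ltf and 8.44 TPM of Csf1r, and run 1 whole marrow G-CSF replicate 2 had 12943 and 9.05 TPM of these genes. For untreated replicate 2 the run 2 library labelled whole marrow had 296 TPM of Ltf and 71.9 TPM of Csf1r, and the run 1 precursor library had 305 and 70.0 TPM. The run 2 library labelled precursor untreated replicate 2 had 7734 TPM of Ltf and 10.8 TPM of Csf1r, and run 1 whole marrow untreated replicate 2 had 9207 and 13.4 TPM. The library labelled precursor combined replicate 3 had 8016 TPM of Ltf beside 31.4 TPM of Csf1r in run 2, a value of Csf1r between those of run 1 precursors and run 1 marrow. The library labelled whole marrow ZA replicate 2 had 7900 TPM of Ltf in run 2 and 11886 TPM in run 1.

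Among the members, Itgb2l and Chil3 had the highest correlation with each other over the 9 whole marrow libraries (Pearson r = 0.94), and Mmp8 with Mmp9 had 0.82. These values share the libraries and the division between mice with and without G-CSF.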
